A study of Mus musculus with 6 samples.

Results

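The genes described here are the kinesins, the proteins of the kinetochore and centromere, and the kinases, checkpoint and chromosome-condensing proteins of mitosis. They were chosen by name, as genes whose symbol marks a kinesin (Kif), a centromere protein (Cenp), Bub1, Bub1b or Bub3, an Aurora or polo-like kinase, a condensin subunit (Ncap) or a cell division cycle associated gene (Cdca). Cdc20, Mad2l1, Ttk, Nek2, Ube2c, Tpx2, Birc5, Incenp, Nusap1, Mki67 and Top2a were added by name. The rule used no measured value and found 72 of the 13212 genes measured, covered by 138 of 21556 probe sets. Aurkaip1 was caught by the Aurora pattern although its product is a protein of the mitochondrial ribosome, and it is counted but described apart.

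The cells were mouse osteosarcoma line mOS482, derived from a tumour that arose by itself on a background that the labels give as null for Rb and p53, shared by both groups. The Sox2 shRNA group (3 arrays) stably expressed 1 hairpin against Sox2, a transcription factor of stem cells. The scrambled group (3 arrays) stably expressed a scrambled hairpin. Both were kept under hygromycin selection in serum-containing medium and grown as triplicate plates, so the replicates of a group were plates of 1 infected line, and the tests measure only the spread between plates and arrays.

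Mitosis divides the copied chromosomes between daughter cells. Kinetochores, built on centromeric chromatin that carries the histone variant CENP-A, attach chromosomes to spindle microtubules, and mitotic kinesins push, pull and trim those microtubules. The spindle checkpoint keeps CDC20 from activating the anaphase-promoting complex (APC/C), a ubiquitin ligase, until all kinetochores are attached, and the Aurora and polo-like kinases time and correct these steps. Most of these genes are transcribed mainly in G2 and mitosis, so that their RNA is high in dividing populations, whereas many other kinesins carry vesicles and organelles in cells of any stage.

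All values are on a log2 scale, with the scrambled arrays centred near 0 for each probe set. Levels are therefore not known here, genes cannot be compared by level, and only differences between arrays are read. Differences are Sox2 shRNA minus scrambled, ± is the SE of limma (n = 3 arrays per group), and per-array values follow the array numbers 1 to 3. A gene was called, or said to rise or fall, at a limma p under 0.05 after Benjamini-Hochberg adjustment over all 13212 genes.

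The probe set of Sox2 itself was not lower in the Sox2 shRNA arrays, at 0.17, 0.055 and 0.58 on the Sox2 shRNA arrays and 0.069, -0.039 and -0.033 on the scrambled arrays, a difference of 0.27 ± 0.14 (adjusted p = 0.154), and whether it lay above background is unknown. Sox2 shRNA array 1 stood apart. Its SD over all probe sets was 0.733, against 0.569 and 0.574 on the other Sox2 shRNA arrays and 0.0891 to 0.112 on the scrambled arrays. Because the values were centred near the scrambled arrays, the SD of the Sox2 shRNA arrays includes the difference between groups. The SD is therefore not comparable between the groups as a measure of array quality. The array weights of limma, which rest on the spread within groups, were lower on the Sox2 shRNA arrays. They were 0.16, 1.18 and 0.70 there, against 1.32, 2.85 and 2.00 on the scrambled arrays. The main limma fit did not use these weights and took the spread of a gene as equal in both groups. The hybridisation spike-ins, transcripts added by the manufacturer's protocol, averaged 1.26, 0.58 and 0.56 on the Sox2 shRNA arrays, against 0.24, -0.13 and -0.22 on the scrambled arrays (exact two-sided permutation p = 0.1, the smallest that 3 arrays against 3 can give). The Actb probe set at the 3′ end exceeded that at the 5′ end, a sign of RNA or labelling quality, by 1.55, 0.65 and 0.58 on the Sox2 shRNA arrays, against 0.32, -0.027 and -0.32 on the scrambled arrays (exact p = 0.1). Over all genes 21.8% were lower and 16.8% higher, and the marker lists are short and were not tested against these shares. Among markers of other cell types, 1 of 6 macrophage genes was lower and 2 higher, 0 of 4 endothelial genes were called, 2 of 4 stromal genes were higher and 1 of 3 adipocyte genes was lower. Of 8 osteoblast lineage markers, 1 was lower and 2 were higher, and because levels had been removed it is not known which of them lay above background in scrambled cells. The largest rises among the markers, named after their values were seen, were those of Dcn, a stromal proteoglycan, and Col1a1, a bone collagen chain. Dcn had 5.52, 5.72 and 6.07 in Sox2 shRNA cells, against 0.15, 0 and -0.16 in scrambled cells (difference 5.77 ± 0.15, adjusted p = 4.46e-07). Col1a1 had 3.38, 3.62 and 3.65 in Sox2 shRNA cells, against 0.014, 0.051 and 0.040 in scrambled cells (difference 3.52 ± 0.10, adjusted p = 4.71e-07), whereas its partner chain Col1a2 differed by -0.42 ± 0.13 (adjusted p = 0.0325). The part of these markers and array measures in the results below was not tested, apart from the fits with an array measure as a covariate.

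In the fit without a covariate, mitotic genes were lower in Sox2 shRNA cells. Of the 72 genes, 35 fell (48.6%), where 21.8% of all genes tested fell. Only 4 rose, all of them kinesins not listed as mitotic (5.56%, against 16.8% of all genes), and 33 were not called, with 38.5% of all genes called in either direction. The median difference was -0.32 over the 72 genes and 0.078 over all genes. A fall of at least 2-fold was seen for 8 genes, against 3.62% of all genes. They were Cenpq, Kif20a, Aurkb, Cenpe, Ube2c, Kif4, Ncapg2 and Tpx2, and none of the 4 rises reached 2-fold, against 2.68% of all genes.

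Falls were found in every mitotic role listed, in 3 of the other kinesins and in Aurkaip1. All 4 rises were among the other kinesins. Of these 21.1% rose and 15.8% fell, near the 16.8% and 21.8% of all genes. Without Aurkaip1 and the 19 kinesins not listed as mitotic, Kif2a among them, 52 genes remained, Plk2, Plk3 and Aurkc included. Of these 31 fell (59.6%, against 21.8% of all genes) and 0 rose by limma (against 16.8%), and the median difference was -0.48. By array the median of these 52 genes was -0.67, -0.35 and -0.35 in Sox2 shRNA cells, against -0.042, 0 and 0.026 in scrambled cells. All 3 Sox2 shRNA arrays lay on the same side of the scrambled arrays, and array 1 lay farthest. It was the lowest of the 3 in 40 of the 52 genes and in 31 of the 35 genes that fell. The same count was not made over all genes, and array 1 also had the widest spread over all probe sets. The groups did not overlap in 53 of the 72 genes (73.6%, against 56.9% of all genes). Sox2 shRNA was lower in 40 of them and higher in 13, where all genes gave 27.6% and 29.3%. In RNA from whole plates, fewer cells in mitosis and less of these transcripts per cell cannot be told apart.

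The number and the size of the falls depended on how the array measures were treated. When the spike-in level entered the fit as a covariate, 7 of the 72 genes fell and 1 rose, where 7.94% and 6.50% of all genes did. The share that fell was thus near that of all genes, unlike in the fit without a covariate. The median difference was -0.14, against -0.0068 over all genes. The genes that fell were Aurkaip1, Bub3, Cdc20, Cenpa, Cenpq, Kif5c and Ube2c, and the one that rose was Kif21a. Of these, Aurkaip1, Kif5c and Kif21a are not among the 52 mitotic genes. All 35 genes that fell without the covariate stayed below 0 with it, from -1.18 (Cenpq) to -0.0079 (Kif18a). They were picked as lower on the same 6 arrays, so their sign is no separate support. Of the 52 mitotic genes 42 were below 0, against 44 without it. The matching shares over all genes were not counted. With the Actb 3′ minus 5′ signal as a covariate, chosen after the data were seen, 15 fell and 2 rose, where 10.8% and 8.02% of all genes did. The spike-in covariate widened the median SE over all genes to 0.162, against 0.109. Without Sox2 shRNA array 1, the array that stood apart, 40 of the 72 genes fell and 4 rose, where 3135 and 2695 of all 13212 genes did. Without scrambled array 2 or 3, 22 fell, where 2055 and 1944 of all genes did, against 2874 on all 6 arrays. The rises numbered 2 without scrambled array 1 or 3 and 6 without Sox2 shRNA array 3, where those of all genes numbered 1331, 1155 and 2462.

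**Figure D1:**
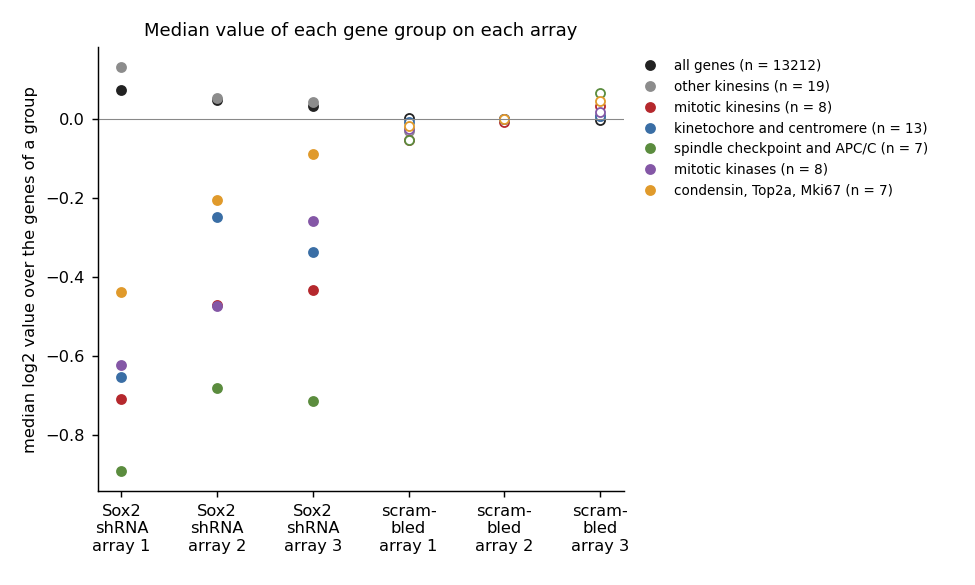
Median log2 value (centred, vertical axis) over all genes and over the genes of 6 roles on each of the 6 arrays (horizontal axis, filled for Sox2 shRNA and open for scrambled); black is all 13212 genes. The mitotic roles drawn lie below 0 on all 3 Sox2 shRNA arrays, lowest on array 1, and the checkpoint genes lie lowest of the roles drawn on each of them, while all genes and the other kinesins lie slightly above 0.

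**Figure D2:**
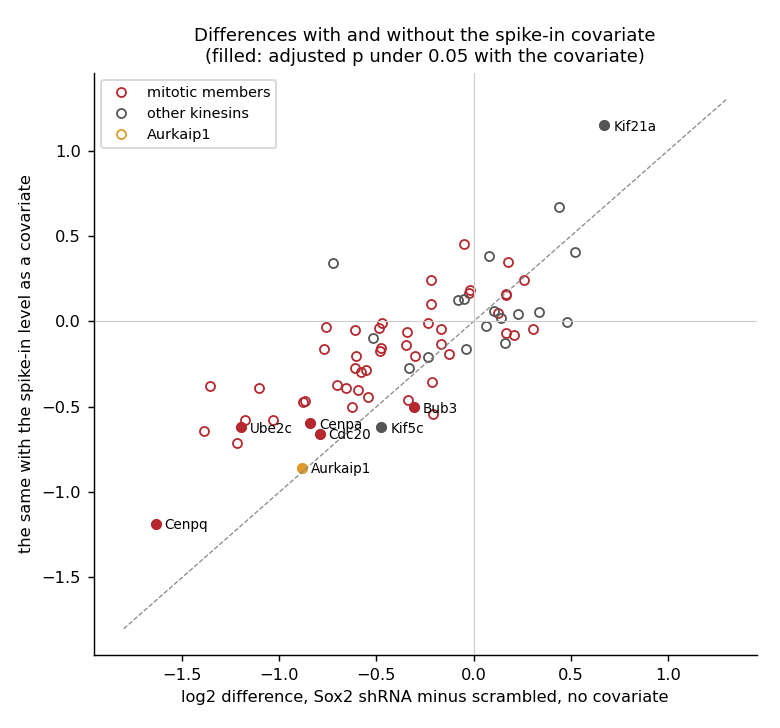
Log2 difference of each of the 72 genes without a covariate (horizontal axis) and with the level of the spike-ins as covariate (vertical axis); filled points had an adjusted p under 0.05 with the covariate, and the dashed line marks equal values. Most mitotic genes below 0 lie above the dashed line, that is closer to 0 with the covariate, whereas Kif21a is at 1.15 with it and 0.67 without it.

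Promoter sequence was examined because genes transcribed in G2 and mitosis often share a short element at their start. The cell cycle genes homology region (CHR, TTTGAA) is bound by the MuvB core of the DREAM and B-MYB complexes, and CCAAT is bound by NF-Y. Both strands of the RefSeq promoter windows (GRCm38.p6, 250 bases before to 50 after each start) were searched, overlaps between the motifs being allowed, and 62 of the 72 genes matched a window. A CHR lay anywhere in the window of 25 of the 62 genes (40.3%), against 15.4% of the 10173 array genes with a window and 20.2% of all 27025 genes. Within 50 bases of the start, a span chosen after the data were seen, the share was 35.5%, against 3.99% of array genes and 5.72% of all. CCAAT was found in 54.8% of the 62, against 42.3% of array genes and 41.1% of all.

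Anywhere in the window, a CHR was found in 15 of the 30 matched genes that fell (50%) and in 10 of the 32 that did not (31.2%), where the shares of all array genes were 14.5% of those that fell and 15.7% of those that did not. In the 50-base span chosen after the data were seen, it was found in the same number of the 30 that fell and in 7 of the 32 that did not (21.9%). Over all array genes this span held one in 4.48% of those that fell and 3.84% of those that did not. Of the 4 that rose, Kif1a held one. By role, within 50 bases of the start, 5 of 7 mitotic kinesins, 5 of 7 checkpoint and APC/C genes, 3 of 13 kinetochore genes and 1 of 14 other kinesins had it. The 32 genes that did not fall include all the matched other kinesins except Kif2a and Kif5c. Of the 14 matched other kinesins, 1 (Kif1a) had a CHR anywhere in the window. The genes that fell and those that did not therefore also differ in role, and the shares were not counted without the other kinesins. Differences between these shares were not tested. A match is a description of letters and does not show that a factor binds there.

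The 8 sequences that follow are those of the lowest genes with a CHR near the start, among the genes that matched a window. Kif20a, Aurkb and Tpx2 matched none, so whether they hold a CHR was not examined. They run from 80 bases before to 50 after the start, 5′ to 3′ on the gene's strand, with the CHR (TTTGAA, or TTCAAA when reversed) and CCAAT (or ATTGG) in capitals. Those of Ube2c (chr2:164769849-164769978, plus strand), Kif4 (chrX:100625985-100626114, plus), Ncapg2 (chr12:116405356-116405485, plus), Cenpa (chr5:30666806-30666935, plus), Cdc20 (chr4:118437294-118437423, minus), Bub1b (chr2:118598131-118598260, plus), Plk1 (chr7:122159355-122159484, plus) and Kif11 (chr19:37376302-37376431, plus) are shown.
Ube2c: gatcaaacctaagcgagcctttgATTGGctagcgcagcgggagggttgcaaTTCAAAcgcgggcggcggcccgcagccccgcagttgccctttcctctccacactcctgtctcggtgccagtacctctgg
Kif4: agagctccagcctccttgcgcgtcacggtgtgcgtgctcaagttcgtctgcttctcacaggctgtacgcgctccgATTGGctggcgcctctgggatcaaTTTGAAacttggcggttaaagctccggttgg
Ncapg2: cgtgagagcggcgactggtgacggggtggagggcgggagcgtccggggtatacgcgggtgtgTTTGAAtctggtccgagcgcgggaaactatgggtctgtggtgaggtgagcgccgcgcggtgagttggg
Cenpa: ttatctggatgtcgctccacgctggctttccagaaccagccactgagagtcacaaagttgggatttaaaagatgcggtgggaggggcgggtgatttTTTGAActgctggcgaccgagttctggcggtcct
Cdc20: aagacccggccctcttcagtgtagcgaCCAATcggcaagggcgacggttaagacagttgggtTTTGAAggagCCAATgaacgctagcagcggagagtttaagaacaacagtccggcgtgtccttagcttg
Bub1b: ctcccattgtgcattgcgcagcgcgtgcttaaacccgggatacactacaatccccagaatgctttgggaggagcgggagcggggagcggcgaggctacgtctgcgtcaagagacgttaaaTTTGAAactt
Plk1: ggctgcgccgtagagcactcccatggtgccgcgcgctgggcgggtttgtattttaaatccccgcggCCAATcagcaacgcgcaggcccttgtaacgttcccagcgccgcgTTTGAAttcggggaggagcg
Kif11: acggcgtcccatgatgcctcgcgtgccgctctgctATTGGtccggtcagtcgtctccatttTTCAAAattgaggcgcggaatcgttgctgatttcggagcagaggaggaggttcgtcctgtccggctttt

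For contrast, 3 windows hold no CHR: that of the largest fall, Cenpq (chr17:40934525-40934654, minus strand), and those of Kif3b (chr2:153291336-153291465, plus) and Kif21a (chr15:91049902-91050031, minus), which rose.
Cenpq: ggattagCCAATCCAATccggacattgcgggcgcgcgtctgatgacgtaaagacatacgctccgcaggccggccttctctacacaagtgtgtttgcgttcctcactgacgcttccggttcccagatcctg
Kif3b: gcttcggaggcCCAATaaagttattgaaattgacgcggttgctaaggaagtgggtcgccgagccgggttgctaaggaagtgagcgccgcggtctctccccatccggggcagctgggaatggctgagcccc
Kif21a: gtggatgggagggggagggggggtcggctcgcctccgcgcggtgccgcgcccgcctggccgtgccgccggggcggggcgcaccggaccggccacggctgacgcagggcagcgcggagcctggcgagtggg

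The Cdc20, Plk1, Kif4, Kif11 and Ube2c windows pair a CHR with CCAAT in the printed span. Those of Ncapg2, Bub1b and Cenpa hold the CHR alone there, but the full windows of Bub1b (at -113) and Cenpa (at -109 and -86) hold CCAAT farther upstream. Cenpq has CCAAT repeated without a CHR.

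**Figure D3:**
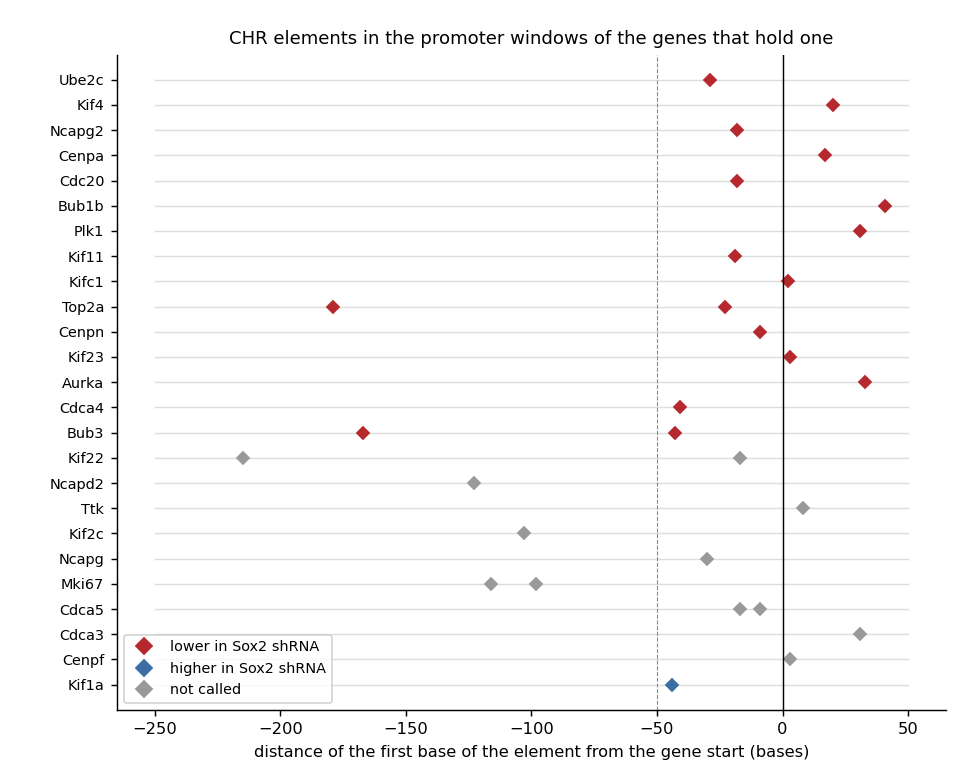
Position of each CHR (first base, horizontal axis, in bases from the gene start) in the 25 genes whose promoter window holds one, ordered by log2 difference with the lowest at the top; colour gives the call and the dashed line marks 50 bases before the start. The 15 genes that fell each have a CHR within 50 bases of the start, whereas those of Ncapd2, Kif2c and Mki67, which were not called, lie farther upstream.

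Among the 8 mitotic kinesins 6 fell (75%, against 21.8% of all genes) and 0 rose by limma, with a median difference of -0.51. Kif20a on chromosome 18, which brings the passenger complex to the central spindle for cytokinesis, had -1.89, -0.97 and -1.27 in Sox2 shRNA cells, against -0.067, 0 and 0.10 in scrambled cells (difference -1.39 ± 0.21, adjusted p = 0.00174). Kif4 on chromosome X, a motor of chromosome arms that works with condensin and sets the length of the central spindle, had -1.59, -0.94 and -1.0 in Sox2 shRNA cells, against -0.066, 0.032 and 0.039 in scrambled cells (difference -1.18 ± 0.17, adjusted p = 0.00133). On both genes array 1 was the lowest, yet the highest Sox2 shRNA value lay far below the lowest scrambled value. On chromosome X 41.3% of all genes fell. Kif11, the motor that pushes spindle poles apart, had -0.78, -0.53 and -0.49 in Sox2 shRNA cells, against 0.063, -0.078 and -0.010 in scrambled cells (difference -0.59 ± 0.10, adjusted p = 0.0033). Kifc1, a minus-end motor that gathers spindle poles, had -0.62, -0.46 and -0.62 in Sox2 shRNA cells, against -0.057, -0.048 and 0.025 in scrambled cells (difference -0.54 ± 0.086, adjusted p = 0.00216). Its Sox2 shRNA arrays lay close together, but its probe sets also match the near-identical gene Kifc5b, and without probe sets marked as matching several transcripts the difference was -0.27 (adjusted p = 0.0609).

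The smaller falls were those of Kif23, a centralspindlin subunit of the midzone, at -0.48 ± 0.11 (adjusted p = 0.0112), and Kif18a, which dampens chromosome movements at the metaphase plate, at -0.47 ± 0.14 (adjusted p = 0.0299). The call for Kif23 was lost without scrambled array 2 (adjusted p = 0.0518). That for Kif18a was lost without Sox2 shRNA array 2 (0.0635), scrambled array 2 (0.101) or scrambled array 3 (0.112). Kif22, a chromosome arm motor, differed by -0.24 ± 0.10 (adjusted p = 0.0892) and was not called. Kif2c, a depolymerase that removes faulty attachments at centromeres, differed by -0.21 ± 0.10 (adjusted p = 0.117), and its 4 probe sets went both ways. The 2 that reach the end of the gene fell by 0.81 ± 0.19 (adjusted p = 0.0135) and 0.59 ± 0.096 (0.0027), whereas the 2 placed on a shorter stretch at its start differed by 0.080 ± 0.16 (0.701) and 0.47 ± 0.15 (0.046), adjusted over all probe sets. On the minus strand of chromosome 4 (build not stated), the lowest of the 4 was aligned from 116832244 to 116855192, and the pair at the start from 116847012 to 116855197.

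**Figure D4:**
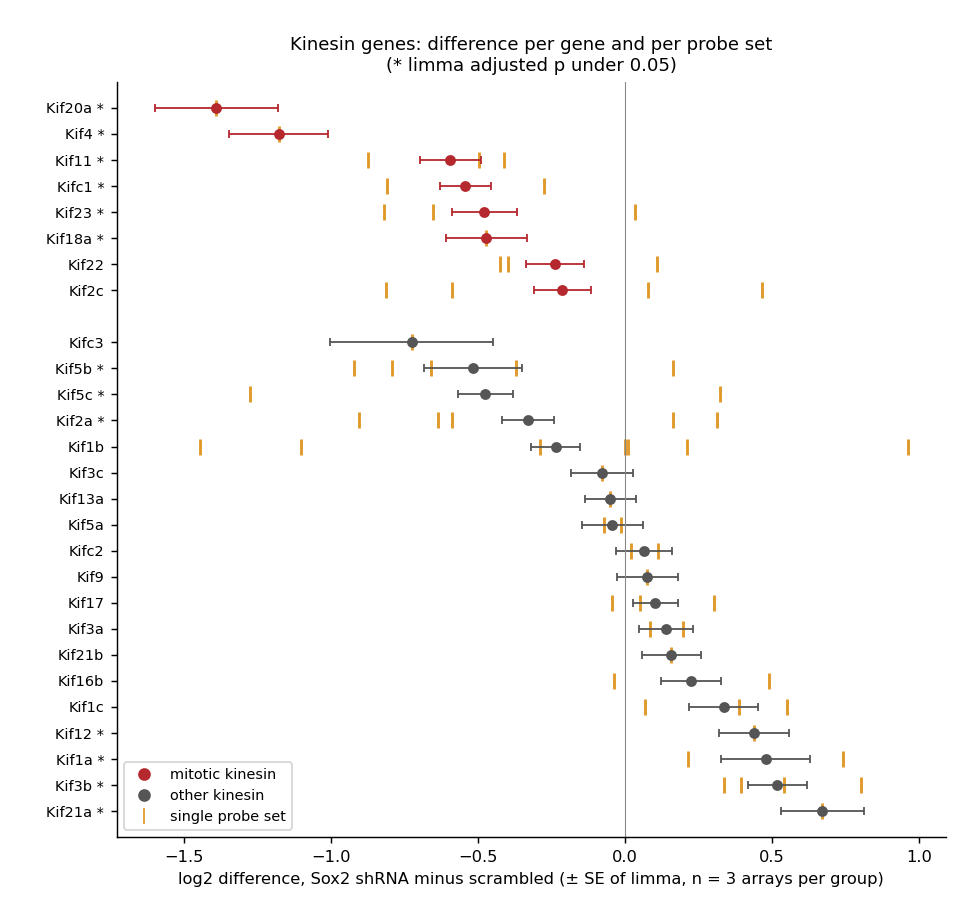
Log2 difference, Sox2 shRNA minus scrambled, of the 27 kinesin genes (points with the SE of limma, n = 3 arrays per group) and of their single probe sets (orange marks); asterisks mark an adjusted p under 0.05. All 8 mitotic kinesins lie below 0, the 19 others run from -0.72 to 0.67, and the probe sets of Kif1b, Kif2c and Kif5c lie far apart.

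Among the 19 other kinesins 4 rose (21.1%, against 16.8% of all genes), 3 fell (15.8%, against 21.8%) and 12 were not called. Their median difference was 0.077, against 0.078 over all genes. Kif21a, a motor that restrains microtubule growth, had 0.43, 0.70 and 0.94 in Sox2 shRNA cells, against -0.14, 0.085 and 0.11 in scrambled cells (difference 0.67 ± 0.14, adjusted p = 0.00783). It was called under all 18 alternatives, but it has 1 probe set, so rules for probe sets could not change its value. Kif3b, a subunit of the kinesin-2 motor that builds cilia, had 0.71, 0.49 and 0.49 in Sox2 shRNA cells, against -0.068, 0.13 and 0.081 in scrambled cells (difference 0.52 ± 0.10, adjusted p = 0.00553). Its partner Kif3a, by contrast, was not called, at 0.14 ± 0.091 (adjusted p = 0.244). Kif12 had 0.34, 0.39 and 0.71 in Sox2 shRNA cells, against -0.031, 0.16 and -0.0016 in scrambled cells (difference 0.44 ± 0.12, adjusted p = 0.0213), and Kif1a, a motor of synaptic vesicle precursors in neurons, had 0.80, 0.39 and 0.19 in Sox2 shRNA cells, against 0.0087, 0.0021 and -0.065 in scrambled cells (difference 0.48 ± 0.15, adjusted p = 0.0373). The calls of Kif12 and Kif1a depended on single arrays. Kif12 was not called without scrambled array 1 (adjusted p = 0.0823) or 3 (0.0842). Kif1a was not called without Sox2 shRNA array 2 (0.0619) or scrambled array 1 (0.0944), 2 (0.0946) or 3 (0.118), differed by 0.31 without Sox2 shRNA array 1, and by -0.0012 with the spike-in covariate.

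The falls among these 19 were those of Kif5b and Kif5c, heavy chains of conventional kinesin, and of Kif2a, a depolymerase that works in interphase and also at spindle poles. Kif5c had -0.44, -0.47 and -0.47 in Sox2 shRNA cells, against 0.15, 0 and -0.11 in scrambled cells (difference -0.47 ± 0.093, adjusted p = 0.00564). Its Sox2 shRNA values were nearly equal on the 3 arrays, but they averaged a probe set that fell by 1.27 ± 0.21 (adjusted p = 0.00255) with another at 0.33 ± 0.21 (0.246). Kif2a had -0.33, -0.27 and -0.40 in Sox2 shRNA cells, against -0.060, -0.048 and 0.11 in scrambled cells (difference -0.33 ± 0.088, adjusted p = 0.0207) and was not called without scrambled array 1 (0.0513), 2 (0.0604) or 3 (0.102). Kif5b differed by -0.52 ± 0.17 (adjusted p = 0.0412), by -0.34 without Sox2 shRNA array 1, and was not called without Sox2 shRNA array 2 (0.0766) or scrambled array 1 (0.128), 2 (0.0681) or 3 (0.124). The third conventional heavy chain, Kif5a, was at -0.042 ± 0.10 (adjusted p = 0.759) on chromosome 10, where 40.0% of all genes fell.

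The largest difference among those not called was that of Kifc3, a minus-end motor named here after its values were seen, which had -1.46, -0.30 and -0.41 in Sox2 shRNA cells, against -0.12, 0.041 and 0.082 in scrambled cells (difference -0.72 ± 0.28, adjusted p = 0.0717). Array 1 lay far below the others, and without it the difference was -0.36 and called (adjusted p = 0.0135). With a covariate the sign turned and Kifc3 was not called, at 0.34 with the spike-in level (adjusted p = 0.374) and 0.16 with the Actb signal (0.66). Kif1b, a carrier of mitochondria and vesicles, differed by -0.24 ± 0.083 (adjusted p = 0.0567) over 7 probe sets that ran from -1.44 ± 0.22 (adjusted p = 0.00197) to 0.96 ± 0.15 (0.00241). The gene average therefore hid probe sets called in both directions, as in Kif2c. Kif1c, of the same subfamily, was at 0.34 ± 0.12 (adjusted p = 0.0548). The remaining 8, Kif3c, Kif13a, Kifc2, Kif9, Kif17, Kif21b, Kif16b and Kif3a, lay between -0.078 and 0.23.

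Of 13 centromere and kinetochore genes 6 fell (46.2%, against 21.8% of all genes) and 0 rose by limma, with a median difference of -0.48. The largest fall of all 72 genes was that of Cenpq on chromosome 17, a subunit of the inner kinetochore network. It had -1.97, -1.74 and -1.31 in Sox2 shRNA cells, against -0.11, 0 and -0.0021 in scrambled cells (difference -1.64 ± 0.16, adjusted p = 0.000232), which is 3.11-fold lower. Cenpa, the histone variant that marks centromeres, had -1.0, -0.69 and -0.85 in Sox2 shRNA cells, against -0.059, -0.016 and 0.060 in scrambled cells (difference -0.84 ± 0.10, adjusted p = 0.000581). Cenpc1, which binds CENP-A nucleosomes and recruits the outer kinetochore, had -1.08, -0.74 and -0.70 in Sox2 shRNA cells, against -0.058, 0 and 0.13 in scrambled cells (difference -0.87 ± 0.12, adjusted p = 0.00123). For these 3 genes the groups were far apart, and Cenpq and Cenpa were called under all 18 alternatives. Both Cenpq and Cenpa have 1 probe set, so rules for probe sets could not change their values. Cenpe, the kinetochore motor that brings chromosomes to the spindle equator, had -1.67, -1.39 and -0.34 in Sox2 shRNA cells, against 0.38, -0.092 and -0.031 in scrambled cells (difference -1.22 ± 0.32, adjusted p = 0.0193). Its Sox2 shRNA arrays spread widely, and it was not called without Sox2 shRNA array 2 (adjusted p = 0.0606) or scrambled array 1 (0.0749) or 3 (0.0527).

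Inner kinetochore subunits did not all fall. Cenph had -0.93, -0.41 and -0.70 in Sox2 shRNA cells, against 0.030, 0 and 0.043 in scrambled cells (difference -0.70 ± 0.13, adjusted p = 0.00472). Cenpn, which reads CENP-A nucleosomes, differed by -0.48 ± 0.12 (adjusted p = 0.0138) and was not called without scrambled array 2 (0.0563) or 3 (0.0617). Cenpv just missed the threshold, at -0.61 ± 0.21 (adjusted p = 0.0508). In Cenpv, Sox2 shRNA array 2 lay close to the scrambled arrays. Cenpm and Cenpk were at -0.21 and -0.13 and were not called. On the other side of 0, also not called, lay Cenpt, which links the inner network to the NDC80 complex, at 0.26 ± 0.092 (adjusted p = 0.0593), Cenpo at 0.21 and Cenpb, which binds a repeat in centromeric DNA, at 0.18. Cenpf, a large coiled-coil protein of late G2 kinetochores, had 0.26, 0.0092 and 0.14 in Sox2 shRNA cells, against -0.21, 0.034 and 0.087 in scrambled cells (difference 0.17 ± 0.11, adjusted p = 0.259), and its groups overlapped. Cenpq and Cenpo, whose products sit in the same subcomplex, thus had differences of -1.64 ± 0.16 and 0.21 ± 0.11, a gap that was not itself tested.

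The spindle checkpoint and APC/C genes had the lowest median of the mitotic roles with more than 2 genes, -0.77. Of these 7 genes 6 fell (85.7%, against 21.8% of all genes). Ube2c, the ubiquitin-conjugating enzyme of the APC/C, had -1.47, -1.01 and -0.97 in Sox2 shRNA cells, against -0.15, 0.16 and 0.15 in scrambled cells (difference -1.20 ± 0.15, adjusted p = 0.000805). Cdc20, the activator of the APC/C that the checkpoint holds back, had -0.89, -0.73 and -0.71 in Sox2 shRNA cells, against 0.032, 0.024 and -0.0086 in scrambled cells (difference -0.79 ± 0.086, adjusted p = 0.000372). Both were called under all 18 alternatives, though Ube2c has 1 probe set, so rules for probe sets could not change its value. Mad2l1, which binds CDC20 when kinetochores are unattached, had -1.06, -0.71 and -0.78 in Sox2 shRNA cells, against -0.12, 0.10 and 0.11 in scrambled cells (difference -0.88 ± 0.12, adjusted p = 0.00112). Bub1, a checkpoint kinase that also marks centromeric chromatin, had -0.68, -0.68 and -0.51 in Sox2 shRNA cells, against -0.053, 0 and 0.065 in scrambled cells (difference -0.63 ± 0.088, adjusted p = 0.0012). The Bub1 values of Sox2 shRNA arrays 1 and 2 were nearly equal.

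Bub1b, which holds CDC20 in the checkpoint complex, had -1.18, -0.31 and -0.83 in Sox2 shRNA cells, against -0.088, 0 and 0.076 in scrambled cells (difference -0.77 ± 0.20, adjusted p = 0.0183). Its array 2 value was nearer to the scrambled arrays than the others, and it was not called without scrambled array 2 (adjusted p = 0.0572) or 3 (0.0696). Bub3, their shared partner, differed by -0.31 ± 0.089 (adjusted p = 0.0278). It was the only member of this role with array 1 as the highest of the Sox2 shRNA arrays, and its difference was -0.50 with the spike-in covariate. It was not called without Sox2 shRNA array 2 (0.0612) or 3 (0.0627), or without scrambled array 1 (0.104), 2 (0.0964) or 3 (0.0753). Ttk, the kinase at the top of the checkpoint, had -0.58, -0.049 and -0.0088 in Sox2 shRNA cells, against 0.048, -0.040 and 0.015 in scrambled cells (difference -0.22 ± 0.15, adjusted p = 0.269). Its lower value rested on array 1, and arrays 2 and 3 lay within the range of the scrambled arrays or next to it.

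Among the 8 Aurora, polo-like and NEK kinases, 5 fell (62.5%, against 21.8% of all genes) and 0 rose by limma, with a median of -0.45. Aurkb on chromosome 11, the passenger kinase that corrects faulty attachments, had -2.06, -0.97 and -1.08 in Sox2 shRNA cells, against -0.10, -0.023 and 0.074 in scrambled cells (difference -1.35 ± 0.26, adjusted p = 0.00521). Plk1, which acts from mitotic entry to cytokinesis, had -0.84, -0.64 and -0.53 in Sox2 shRNA cells, against -0.069, 0 and 0.027 in scrambled cells (difference -0.66 ± 0.10, adjusted p = 0.00184). Plk4, the kinase of centriole duplication, had -0.73, -0.56 and -0.32 in Sox2 shRNA cells, against -0.0032, 0.057 and -0.0019 in scrambled cells (difference -0.55 ± 0.11, adjusted p = 0.00698). In all of these the Sox2 shRNA arrays lay below the scrambled ones, though the Aurkb difference was -0.38 with the spike-in covariate, the largest shift of the 3.

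Nek2, which separates centrosomes, had -0.83, -0.79 and -0.25 in Sox2 shRNA cells, against -0.17, 0 and 0.11 in scrambled cells (difference -0.61 ± 0.16, adjusted p = 0.0213), with array 3 nearer to the scrambled arrays. Aurka, the kinase of spindle poles, had -0.52, -0.28 and -0.26 in Sox2 shRNA cells, against 0.015, -0.046 and 0.014 in scrambled cells (difference -0.35 ± 0.10, adjusted p = 0.0246). Nek2 was not called without Sox2 shRNA array 2 (adjusted p = 0.0636) or scrambled array 2 (0.0679) or 3 (0.0857), nor Aurka without scrambled array 1 (0.0852), 2 (0.0699) or 3 (0.094). The other 3 kinases were not called. Plk2 and Plk3, polo-like kinases best known from stress responses, differed by 0.17 ± 0.075 (adjusted p = 0.11) and -0.34 ± 0.15 (adjusted p = 0.103). Aurkc, the Aurora kinase of germ cells, differed by 0.30 ± 0.12 (adjusted p = 0.0851), and its probe set aligns to more than 1 locus.

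**Figure D5:**
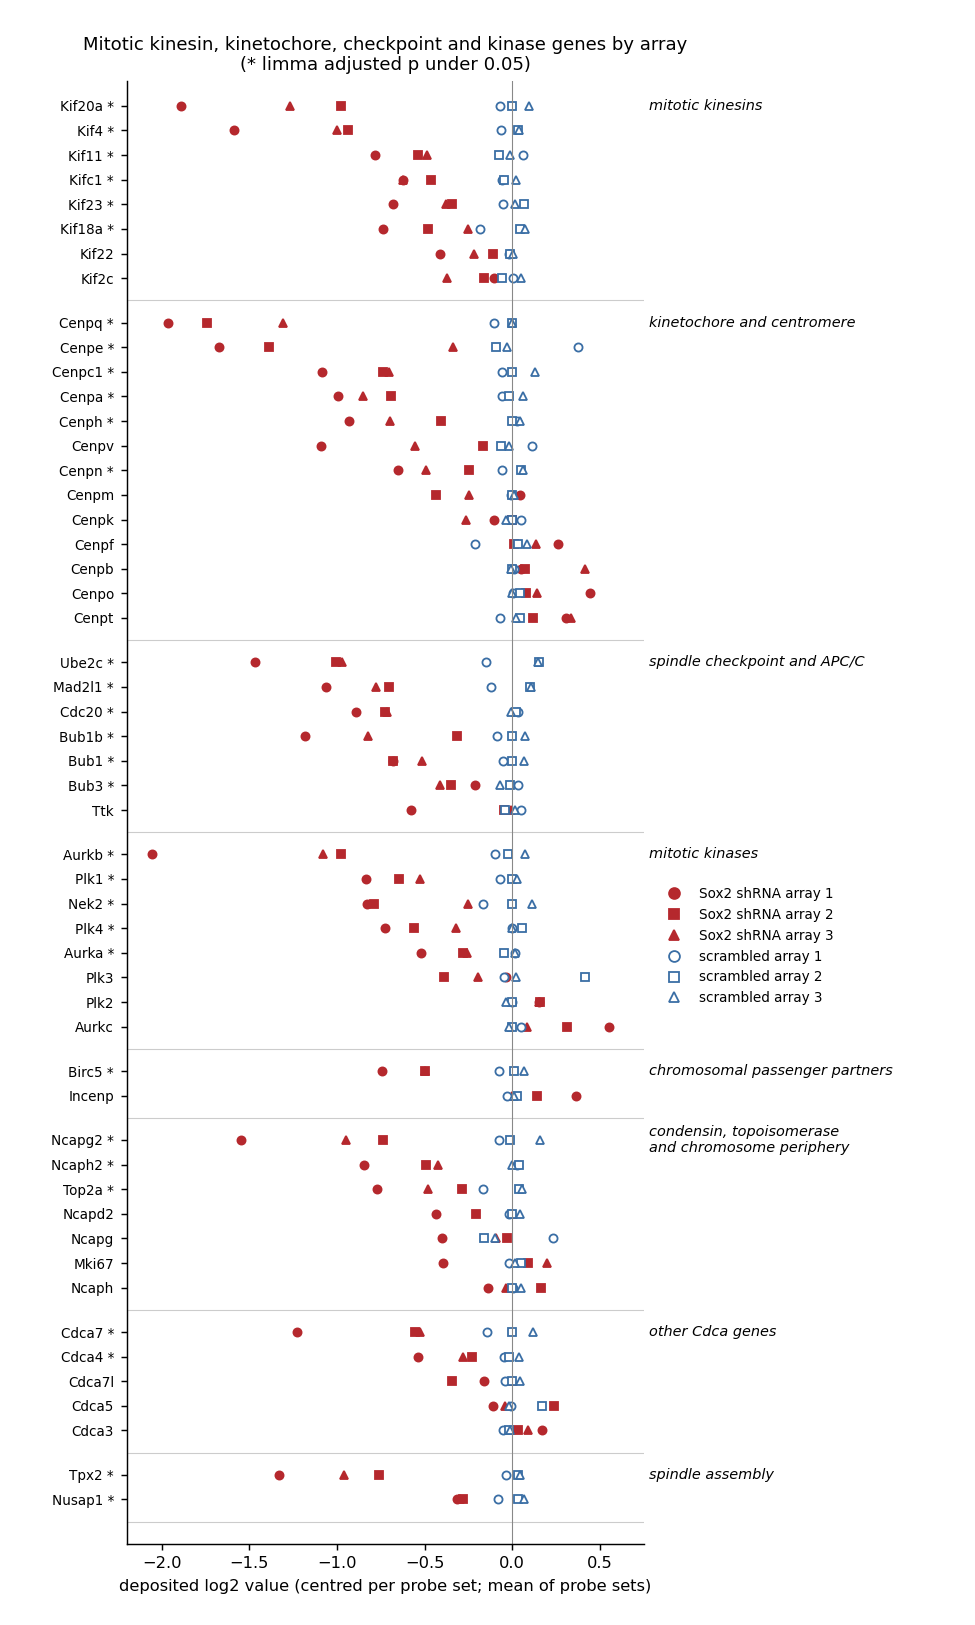
Deposited log2 values (centred per probe set, mean of a gene's probe sets, horizontal axis) of the 52 mitotic genes on the 3 Sox2 shRNA arrays (red) and the 3 scrambled arrays (blue, open), grouped by role; asterisks mark a limma adjusted p under 0.05. Red points lie left of the blue ones in 34 genes, and array 1 is most often the leftmost.

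The partners of Aurora B differed in their calls. Birc5, the subunit that anchors the passenger complex to centromeres, had -0.74, -0.50 and -0.50 in Sox2 shRNA cells, against -0.078, 0.011 and 0.069 in scrambled cells (difference -0.58 ± 0.10, adjusted p = 0.00312). Incenp, its scaffold and activator, had 0.37, 0.14 and 0.0017 in Sox2 shRNA cells, against -0.029, 0.030 and 0.013 in scrambled cells (difference 0.17 ± 0.11, adjusted p = 0.24) and was not called. The Incenp probe sets disagreed, running from -0.33 ± 0.12 (adjusted p = 0.0714) to 0.54 ± 0.12 (0.00946). The one at 0.54 has no genome alignment given. Of the spindle assembly genes, Tpx2 on chromosome 2, which activates Aurora A and nucleates microtubules around chromosomes, had -1.33, -0.76 and -0.96 in Sox2 shRNA cells, against -0.036, 0.034 and 0.043 in scrambled cells (difference -1.03 ± 0.14, adjusted p = 0.00113). Nusap1, a microtubule bundler, had -0.32, -0.28 and -0.30 in Sox2 shRNA cells, against -0.083, 0.031 and 0.069 in scrambled cells (difference -0.30 ± 0.082, adjusted p = 0.0216). The Nusap1 Sox2 shRNA values spanned a narrow range, yet the call was lost without scrambled array 2 (0.0914) or 3 (0.105). These values averaged a probe set at -0.75 ± 0.12 (adjusted p = 0.00236) with another at 0.14 ± 0.098 (0.294).

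Ncapg2 and Ncaph2 belong to condensin II, which works in the nucleus from prophase, and both fell. Ncapg2 had -1.55, -0.73 and -0.95 in Sox2 shRNA cells, against -0.074, -0.011 and 0.16 in scrambled cells (difference -1.10 ± 0.20, adjusted p = 0.00369). Ncaph2 had -0.84, -0.49 and -0.42 in Sox2 shRNA cells, against 0.025, 0.041 and 0.00076 in scrambled cells (difference -0.61 ± 0.12, adjusted p = 0.00578), over probe sets at -1.62 ± 0.26 (adjusted p = 0.00242), -0.36 ± 0.10 (0.026) and 0.15 ± 0.093 (0.224), the last of them aligned to another chromosome. Condensin I, which reaches chromosomes after nuclear envelope breakdown, was not called in any of 3 subunits. Ncapd2 had -0.44, -0.20 and 0.0041 in Sox2 shRNA cells, against -0.019, 0 and 0.046 in scrambled cells (difference -0.22 ± 0.12, adjusted p = 0.167), and its groups overlapped. Ncapg was at -0.17 ± 0.14 (adjusted p = 0.365) and Ncaph at -0.023 ± 0.10 (adjusted p = 0.863). Smc2 and Smc4, the core subunits that both condensins share, are in the other mitosis list and fell, at -1.03 ± 0.24 (adjusted p = 0.0125) and -0.76 ± 0.18 (adjusted p = 0.0117). Whether the complexes differed from each other was not tested.

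Common markers of proliferation differed in their calls. Top2a, the topoisomerase that untangles sister chromatids, had -0.77, -0.29 and -0.48 in Sox2 shRNA cells, against -0.17, 0.040 and 0.055 in scrambled cells (difference -0.49 ± 0.14, adjusted p = 0.0238). That average combined a probe set that fell by 1.10 ± 0.21 (adjusted p = 0.00512) with another at 0.13 ± 0.13 (0.457), and the call was lost without scrambled array 2 (0.0859) or 3 (0.093). Mki67, which coats mitotic chromosomes and gives the Ki-67 proliferation stain, had -0.40, 0.092 and 0.20 in Sox2 shRNA cells, against -0.019, 0.049 and 0.014 in scrambled cells (difference -0.050 ± 0.15, adjusted p = 0.804). It was below the scrambled arrays on array 1 and above them on arrays 2 and 3, and the 95% interval of its difference, -0.40 to 0.30, does not exclude a fall of the size seen in Aurka.

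Of only 5 other Cdca genes 2 fell (40%, against 21.8% of all genes), a difference that was not tested. Cdca7, a partner of the chromatin remodeller HELLS, had -1.23, -0.55 and -0.53 in Sox2 shRNA cells, against -0.15, 0 and 0.12 in scrambled cells (difference -0.76 ± 0.19, adjusted p = 0.0156), with its call lost without scrambled array 2 (adjusted p = 0.0518) or 3 (0.0654). Cdca4 differed by -0.34 ± 0.10 (adjusted p = 0.0316) and was not called without scrambled array 1 (0.0804), 2 (0.0941) or 3 (0.119). Cdca7l, a paralogue of Cdca7, had -0.16, -0.34 and 0.0063 in Sox2 shRNA cells, against -0.039, 0 and 0.045 in scrambled cells (difference -0.17 ± 0.11, adjusted p = 0.23). Cdca3, which helps to degrade the mitotic inhibitor WEE1, had 0.17, 0.032 and 0.093 in Sox2 shRNA cells, against -0.054, -0.015 and -0.014 in scrambled cells (difference 0.13 ± 0.081, adjusted p = 0.235). Neither was called, nor was Cdca5, the cohesin protector sororin, at -0.019 ± 0.11 (adjusted p = 0.903), whose average joined probe sets at -0.57 ± 0.22 (0.0844) and 0.53 ± 0.12 (0.013). Aurkaip1, the mitochondrial gene caught by the pattern, had -0.88, -0.94 and -0.83 in Sox2 shRNA cells, against -0.036, 0.037 and -0.0011 in scrambled cells (difference -0.88 ± 0.079, adjusted p = 0.000165), the smallest adjusted p of the 72. Aurkaip1 was called under all 18 alternatives, but it has 1 probe set, so rules for probe sets could not change its value.

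Probe sets of the same gene often disagreed. Of 36 genes with more than 1 probe set, 18 had probe sets on both sides of 0. Separately, 6 probe sets, of Aurkc, Cdca7, Kifc1, Plk1 and Ube2c, aligned to more than 1 locus, so that near-identical copies could add to their signal. Counted singly, 52 of the 138 probe sets fell (37.7%) and 12 rose, where 20.5% of all 21556 probe sets fell and 14.6% rose. Taking for each gene the probe set with the highest mean gave 21 falls, 10 rises and a median of -0.060, and turned the sign of Bub3, Cdca5, Kif1b, Kif23, Kif2a, Kif2c, Kif5b, Kif5c, Ncaph2, Nusap1 and Top2a. Because the values were centred near the scrambled arrays, such a choice prefers probe sets with higher values in Sox2 shRNA cells.

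Other mitosis genes, from a list of 81 of which 69 were measured, fell as well. Of the 69, 37 fell (53.6%), 1 rose (against 21.8% and 16.8% of all genes) and 31 were not called, with a median of -0.38, against 0.078 over all genes. Cdk1, the kinase that drives mitotic entry, also on chromosome 10, had -1.92, -1.44 and -1.53 in Sox2 shRNA cells, against -0.10, 0.0051 and 0.060 in scrambled cells (difference -1.62 ± 0.13, adjusted p = 0.000113). Its cyclin partner Ccnb1 had -0.78, -0.60 and -0.78 in Sox2 shRNA cells, against 0.0011, -0.031 and 0.050 in scrambled cells (difference -0.73 ± 0.088, adjusted p = 0.000585). Anln, a scaffold of the contractile ring, had -2.08, -1.61 and -1.54 in Sox2 shRNA cells, against -0.12, -0.043 and 0.13 in scrambled cells (difference -1.73 ± 0.15, adjusted p = 0.000148). The falls of Cdk1 and Anln were of the size of that of Cenpq. Nuf2, of the NDC80 complex that holds microtubules, and Mis18a, needed to load new CENP-A, differed by -0.95 ± 0.085 (adjusted p = 0.000154) and -0.85 ± 0.077 (adjusted p = 0.000168). The rise was that of Klc2, a light chain of conventional kinesin, at 0.50 ± 0.11 (adjusted p = 0.0109). Without scrambled array 3 there were 25 falls and 0 rises by limma, and without Sox2 shRNA array 3 there were 38 and 2.

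Among known regulators of these genes, from a list of 28 of which 23 were measured, 8 fell (34.8%), 1 rose (against 21.8% and 16.8% of all genes) and 14 were not called, with a median of -0.13. With the spike-in covariate 2 of the 23 fell, a share near the 7.94% of all genes, and the median was 0.0095, against -0.0068 over all genes. Tfdp1, the dimer partner of E2F factors, had -1.09, -0.76 and -0.79 in Sox2 shRNA cells, against -0.18, 0.0065 and 0.15 in scrambled cells (difference -0.87 ± 0.13, adjusted p = 0.00139). Lin9, a subunit of the MuvB core that binds the CHR, had -0.56, -0.34 and -0.47 in Sox2 shRNA cells, against 0.043, -0.012 and 0.068 in scrambled cells (difference -0.49 ± 0.089, adjusted p = 0.00402), and Nfyc, a subunit of the CCAAT factor NF-Y, had -0.42, -0.49 and -0.50 in Sox2 shRNA cells, against 0.039, 0.044 and -0.047 in scrambled cells (difference -0.48 ± 0.080, adjusted p = 0.00266). Of the other subunits, named after their values were seen, Nfyb fell, at -0.73 ± 0.13 (adjusted p = 0.00421), and Nfya, Lin37 and Rbbp4 were not called, at -0.12, -0.13 and -0.30. The inhibitor gene Cdkn2a fell, at -0.58 ± 0.091 (adjusted p = 0.00209). The falls also included Rb1, at -0.59 ± 0.13 (adjusted p = 0.00861), a gene the labels give as null, and whether its probe set lay above background is unknown. Mybl2, which joins MuvB in late S phase, had -0.77, -0.32 and -0.52 in Sox2 shRNA cells, against -0.017, 0.13 and 0.030 in scrambled cells (difference -0.59 ± 0.12, adjusted p = 0.00776). Foxm1, a forkhead activator of G2 and mitotic genes, had 0.38, 0.10 and 0.19 in Sox2 shRNA cells, against -0.070, -0.0068 and 0.10 in scrambled cells (difference 0.22 ± 0.10, adjusted p = 0.119) and was not called. The rise was that of E2f3, at 0.52 ± 0.11 (adjusted p = 0.00775).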

How the data were processed

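The 6 arrays were Affymetrix mouse genome 430A 2.0 arrays, 1 per plate. Per the submitters' processing notes, the authors used GCOS 1.4 and RMA. The deposited values were taken as log2, the scale RMA returns; the sources used here give neither the log base nor the arrays on which the values were centred. The deposited tables were identical to each other. Of 22690 probe sets, 64 were controls, and 21569 named 1 gene, 578 several and 543 none. The 21556 usable probe sets were averaged by gene, 21181 of them matched to RefSeq by Entrez number. No level, and so no signal over background, is known, and the number of arrays limits the precision.

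Groups were compared with limma 3.58.1 (R 4.3.3, lmFit and eBayes) on all 6 arrays, with Benjamini-Hochberg adjustment over 13212 genes. Single array measures were compared with an exact permutation test. Every member was counted. Per-array values are given for members with a 2-fold fall or any rise, up to 4 of smallest adjusted p in each role, and 20 genes set by name. The members, lists and rules were chosen with earlier results of these data known. Alternatives were other rules for probe sets, array centring, covariates, variance models, a block, chromosomes left out and each array left out. The other deposited table was also among them, though it was identical and could not change a call. A planned search for the kinesin nucleotide-binding motif was not run because no protein table was used here. Simulated data with 13212 genes, 200 of them changed, gave calls for 32% of 50 genes changed by 0.5 log2, 86% at 1 and 100% at 2 and 3, and for 11 of 13012 unchanged genes. The simulation gave both groups the same spread and changed far fewer genes than the 38.5% called here. Its rates therefore do not carry over to these tests.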

Additional observations from a re-analysis of the deposited data

Results flagged for a closer look

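Probe sets outside the gene comparison differed between the groups. The hybridisation spike-ins, which do not come from the cells, were higher on all 3 Sox2 shRNA arrays, by 0.838 on average on the log2 scale. The polyA spike-ins, added before labelling, were higher by 0.173. The Actb signal at the 3′ end less that at the 5′ end was higher by 0.936, and the same measure for Gapdh by 0.290, with groups that overlapped. Each of the first 3 had an exact two-sided permutation p = 0.1, the smallest possible with 3 arrays against 3. Sox2 shRNA array 1, where most of the genes described here were lowest, also had the highest spike-ins (1.26) and the highest Actb measure (1.55). The part of these array measures in the fall of the mitotic genes was not tested beyond the covariate fits.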

How the results depend on the processing

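Of the 39 called genes, 6 kept their call under all 18 alternatives (Aurkaip1, Cdc20, Cenpa, Cenpq, Ube2c and Kif21a), and 23 kept it whichever array was left out. Of those 6, all but Cdc20 had 1 probe set, so rules for probe sets could not change their values. The other deposited table was identical and could not change any call. Leaving out 1 array at a time gave 22 to 40 falls, 2 to 6 rises and medians of -0.34 to -0.30 among the 72 genes, 25 to 39, 0 to 2 and -0.47 to -0.31 in the other mitosis list, 7 to 10, 1 to 2 and -0.21 to -0.10 among the regulators, and 1944 to 3135, 1155 to 2695 and 0.055 to 0.081 over all genes. With the spike-in covariate there were 7 falls, 1 rise and a median of -0.14 (members), 15, 0 and -0.21 (other mitosis genes), 2, 0 and 0.0095 (regulators), and 1049, 859 and -0.0068 (all genes), and Kif1a turned to -0.0012. With the Actb covariate these were 15, 2 and -0.15, then 18, 0 and -0.23, then 4, 0 and -0.010, then 1429, 1060 and 0.0015. The highest-mean probe set gave 21, 10 and -0.060 for members, 24, 4 and -0.21 for the other list, 4 rises and 0.11 for regulators, and 1899 falls and 0.15 over all genes. It turned Bub3 to 0.058, Cdca5 to 0.53, Kif1b to 0.96, Kif23 to 0.036, Kif2a to 0.31, Kif2c to 0.47, Kif5b to 0.16, Kif5c to 0.33, Ncaph2 to 0.15, Nusap1 to 0.14 and Top2a to 0.13. The largest-variance probe set gave medians of -0.57 (members), -0.56 (other list) and -0.48 (regulators, 3 rises). Array weights gave the regulators a median of -0.21, and array centring gave all genes 0.026. At an adjusted p under 0.01 there were 21 falls and 2 rises among members, 23 and 0 in the other list, and 1848 and 1058 over all genes. With the replicate block, Kifc3 was called (-0.72, adjusted p = 0.0264) and no other member changed its call. Equal replicate numbers had deviations correlated at 0.12, -0.026 and 0.17, so the numbers were not taken to pair the arrays. The causes of these changes were not tested. Without levels, it is not known whether a gene not called lay above background.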
